A study of Homo sapiens with 3 samples.

Results

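The promoters of the neuregulin and ERBB genes were followed through a promoter capture Hi-C (PCHi-C) map of human cardiomyocytes. The 8 genes were the ligand genes NRG1, NRG2, NRG3 and HBEGF and the receptor genes EGFR, ERBB2, ERBB3 and ERBB4. A promoter fragment was a HindIII restriction fragment listed as a captured bait that held an annotated transcript start of one of these genes (GENCODE release 44 mapped to GRCh37). The rule found 10 such fragments among the 19075 promoter fragments of the series. They took part in 72 of the 200587 different interactions called in at least 1 replicate.

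The samples formed 1 group of 3 biological replicates of hESC-CM, which are cardiomyocytes made in culture from WA09 (H9) embryonic stem cells at passage 32 per the labels. The cells had been enriched with lactate for 6 days, had a stated purity of at least 80 to 90%, and were fixed in 2% formaldehyde for 10 min. No other cell type, genotype or treatment was included, all replicates come from 1 line, and the assay measures no expression, so cardiomyocyte markers were not checked here. Each replicate held 109731 to 112473 calls. The read depth behind each call was not analysed here, because the files used give scores and no counts.

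The neuregulins and heparin-binding EGF-like growth factor (HB-EGF, encoded by HBEGF) are membrane-anchored growth factors that share an EGF-like domain, which is released or presented to receptors of the ERBB family. EGFR and ERBB4 bind ligand and are active kinases, ERBB3 binds neuregulins but has a weak kinase, and ERBB2 binds no known ligand and works as the partner of the others. In the heart, neuregulin 1 from endocardial cells acts on ERBB4 and ERBB2 of cardiomyocytes and is needed for trabeculation, and HB-EGF acts in valve formation. PCHi-C joins DNA ends that lie close together in the nucleus, pulls down the joins that contain a promoter, and so lists the promoter-interacting regions (PIRs) of that promoter. A CHiCAGO score is higher the further a fragment pair's reads exceed the background predicted for its distance and bait. It is not a contact frequency, and every listed interaction had a score of at least 5.

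The sequences show, for each of 4 promoter fragments, the shortest PIR among those called in most replicates, and the stretch before the starts of the most connected receptor and ligand genes. PIR sequences were read from GRCh37 on the plus strand, and the capitals mark HindIII sites (AAGCTT), at which the fragments were cut. The ERBB4 PIR lies in an ERBB4 intron and was called in all 3 replicates. The EGFR downstream PIR lies past the end of EGFR in an intron of the non-coding gene ELDR, and the HBEGF PIR lies in an intron of the non-coding gene ENSG00000254363. The NRG3 PIR was called in 1 replicate and on the merged replicates.
ERBB4 PIR, chr2:212615942-212616241: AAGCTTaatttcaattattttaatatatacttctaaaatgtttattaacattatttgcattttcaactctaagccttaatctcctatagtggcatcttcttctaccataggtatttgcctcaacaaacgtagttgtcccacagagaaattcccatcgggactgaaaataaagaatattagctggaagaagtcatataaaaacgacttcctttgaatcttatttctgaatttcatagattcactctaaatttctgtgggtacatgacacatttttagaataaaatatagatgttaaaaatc
EGFR downstream PIR, chr7:55316768-55317067: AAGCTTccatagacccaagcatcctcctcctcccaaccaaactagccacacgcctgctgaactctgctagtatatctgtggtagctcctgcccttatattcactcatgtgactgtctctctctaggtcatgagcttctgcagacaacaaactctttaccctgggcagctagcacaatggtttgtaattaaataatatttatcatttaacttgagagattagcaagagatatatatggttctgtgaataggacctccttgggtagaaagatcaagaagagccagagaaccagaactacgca
HBEGF PIR, chr5:139548403-139548702: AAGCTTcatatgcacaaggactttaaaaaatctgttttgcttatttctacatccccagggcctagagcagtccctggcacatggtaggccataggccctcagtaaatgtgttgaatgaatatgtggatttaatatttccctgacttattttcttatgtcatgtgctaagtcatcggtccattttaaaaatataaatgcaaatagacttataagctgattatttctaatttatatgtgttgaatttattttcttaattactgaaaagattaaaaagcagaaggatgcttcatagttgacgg
NRG3 PIR, chr10:85633976-85634203: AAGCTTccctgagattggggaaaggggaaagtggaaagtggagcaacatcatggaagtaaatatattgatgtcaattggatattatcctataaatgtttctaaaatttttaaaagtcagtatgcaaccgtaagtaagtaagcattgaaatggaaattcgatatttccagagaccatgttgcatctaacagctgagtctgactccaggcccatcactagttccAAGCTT

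The 250 bases before the RefSeq starts of HBEGF (minus strand) and EGFR (plus strand) were taken from the RefSeq table, whose build is GRCh38.p14, and were placed in GRCh37 by an exact match inside the promoter fragment. Capitals mark GGGCGG or its reverse complement CCGCCC, the core bound by SP1-type factors.
HBEGF, chr5:139726189-139726438: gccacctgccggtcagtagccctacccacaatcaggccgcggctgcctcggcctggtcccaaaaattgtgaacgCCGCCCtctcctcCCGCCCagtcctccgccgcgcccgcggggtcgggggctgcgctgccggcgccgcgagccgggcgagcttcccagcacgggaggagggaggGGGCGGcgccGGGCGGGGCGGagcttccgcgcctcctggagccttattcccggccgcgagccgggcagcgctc
EGFR, chr7:55086460-55086709: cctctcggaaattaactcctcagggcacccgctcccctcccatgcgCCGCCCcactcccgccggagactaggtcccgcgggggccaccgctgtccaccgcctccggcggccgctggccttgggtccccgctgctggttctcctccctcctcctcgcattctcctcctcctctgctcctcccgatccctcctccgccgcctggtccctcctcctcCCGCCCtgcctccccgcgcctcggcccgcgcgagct

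The HBEGF stretch held 5 GGGCGG matches on both strands together and 33 CG pairs, and the EGFR stretch held 2 matches and 25 CG pairs. The NRG3 stretch held 3 matches and 33 CG pairs. Of 35116 RefSeq promoter stretches of this length, 42.6% held GGGCGG, and the median number of CG pairs was 11 (quartiles 3 and 23). Neither TATAAA, present in 10.7% of all stretches, nor CCAAT, present in 32.0%, was found in these stretches. Of the table's other entries, a second EGFR stretch, which had no exact match near the promoter fragments, held TATAAA, 1 CG pair and no GGGCGG, and the ERBB2 stretch, which lies partly outside the listed fragment, held CCAAT, 23 CG pairs and no GGGCGG. The stretches of NRG2 (20 and 23 CG pairs) and ERBB4 (14) each held 1 GGGCGG match and neither of the other motifs, and a second NRG3 stretch held 3 matches and 41 CG pairs. NRG1 and ERBB3 had no entry in the table. The central 300 bases were searched on both strands in the 11 PIRs that were at least that long and called in at least 2 replicates. The letters AGATAA, which blood and heart GATA factors bind, were in 1 of the 11, against 20.6% of 120314 windows of the series. Those windows came from all fragments of that length in any interaction, promoter fragments and interactions called in 1 replicate included. The letters GGAATG, bound by factors of the TEAD family, were in 1 of the 11, against 15.3%. A match is a description of the window, not a bound site.

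The counts per replicate were 31, 35 and 26 (30.7 ± 4.51, SD, n = 3). Of the 72 interactions, 8 were called in all 3 replicates (11.1%, 95% Wilson interval 5.74 to 20.4%), 4 in 2 replicates and 60 in 1 replicate. Over all interactions of the series, 24.0% were called in all 3 replicates. EGFR held 44 of the 72, of which 1 was called in all 3 replicates, and without EGFR the share was 25%, next to that of the series. Intervals cover counting error only, and the interactions of 1 bait are not independent of each other. The median number of interactions per member fragment was 3.5, against 6 (quartiles 3 and 14) for all promoter fragments.

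**Figure D1:**
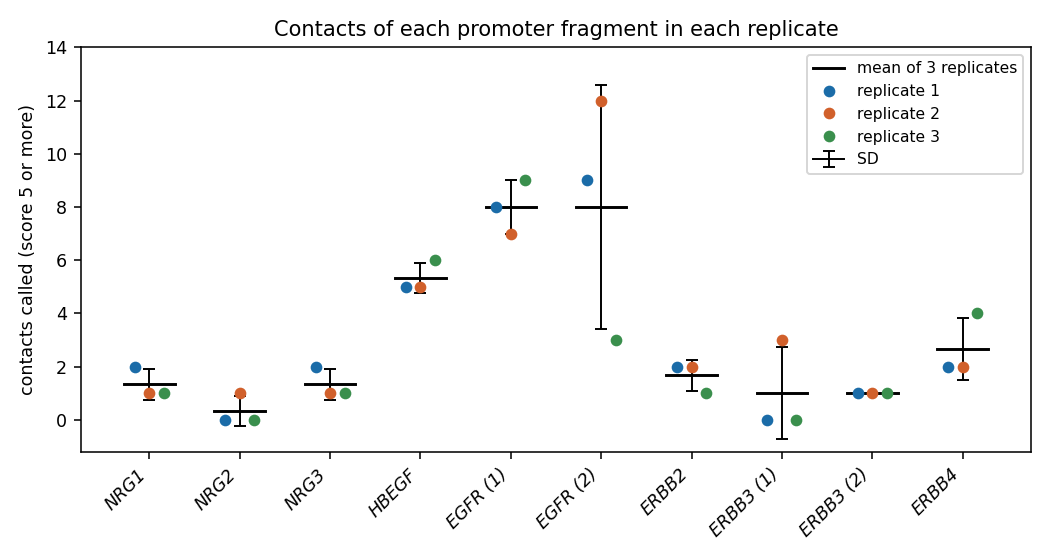
Number of interactions (score of 5 or more) of each of the 10 promoter fragments in each replicate, with points for replicates, long bars for means and error bars for SD (n = 3); EGFR and ERBB3 have 2 fragments each. The 3 replicates of HBEGF sit at 5, 5 and 6, whereas those of the second EGFR fragment range from 3 to 12.

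An interaction called in all 3 replicates was present for 5 of the 8 genes (62.5%): NRG1, HBEGF, EGFR, ERBB2 and ERBB4. Of protein-coding genes with a listed promoter fragment, 55.9% had one. NRG2, NRG3 and ERBB3 had none. By fragment, 5 of the 10 members (50%) had an interaction in all 3 replicates, against 51.9% of all promoter fragments and 54.7% of those of protein-coding genes. The mean scores of the 8 recurrent interactions ranged from 5.49 to 7.24. All 8 lay below the median of 8.32 for interactions called in all 3 replicates over the series, and 6 lay below the lower quartile of 6.82. On the merged replicates, each of the 8 scored above its mean over single replicates.

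**Figure D2:**
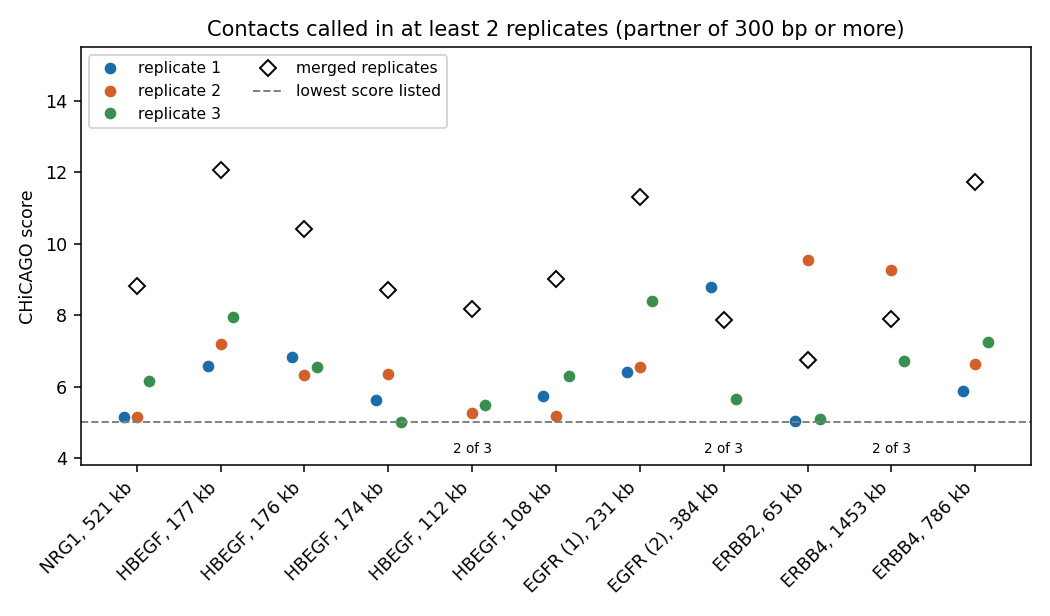
CHiCAGO score of the 11 interactions called in at least 2 replicates whose PIR is at least 300 bp long, with a coloured point for each replicate, a diamond for the authors' call on the merged replicates and a dashed line at the lowest listed score of 5; labels give the gene, the promoter fragment where there are 2, and the distance between fragment midpoints. The HBEGF interaction at 177 kb has replicate scores from 6.57 to 7.94 and 12.06 on the merged replicates, and the ERBB2 interaction has 1 replicate at 9.54 and the others at 5.05 and 5.09.

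Recurrence went with distance. Of the 30 member interactions within 1 Mb, 8 were called in all 3 replicates (26.7%) and 3 in 2 replicates. The series had 34.0% of its interactions within 1 Mb in all 3 replicates, and the members without EGFR had 38.9% (7 of 18). Of the 41 member interactions over longer distances on the same chromosome, none was called in all 3 replicates, 1 was called in 2 and 40 in 1, against 11.8% in all 3 replicates over the series. Calls on the merged replicates included 24 of the 30 shorter and 3 of the 41 longer member interactions. The corresponding shares of the series were 79.9% and 28.9%. EGFR held 31 of the 41 longer interactions, none of them called on the merged replicates, and the other genes had 3 of 10. In all, 27 of the 72 member interactions (37.5%) were also called on the merged replicates, against 56.7% over the series. By gene this was 10 of 44 for EGFR and 17 of 28 (60.7%) for the other genes, so the share lay below that of the series with EGFR and above it without.

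**Figure D3:**
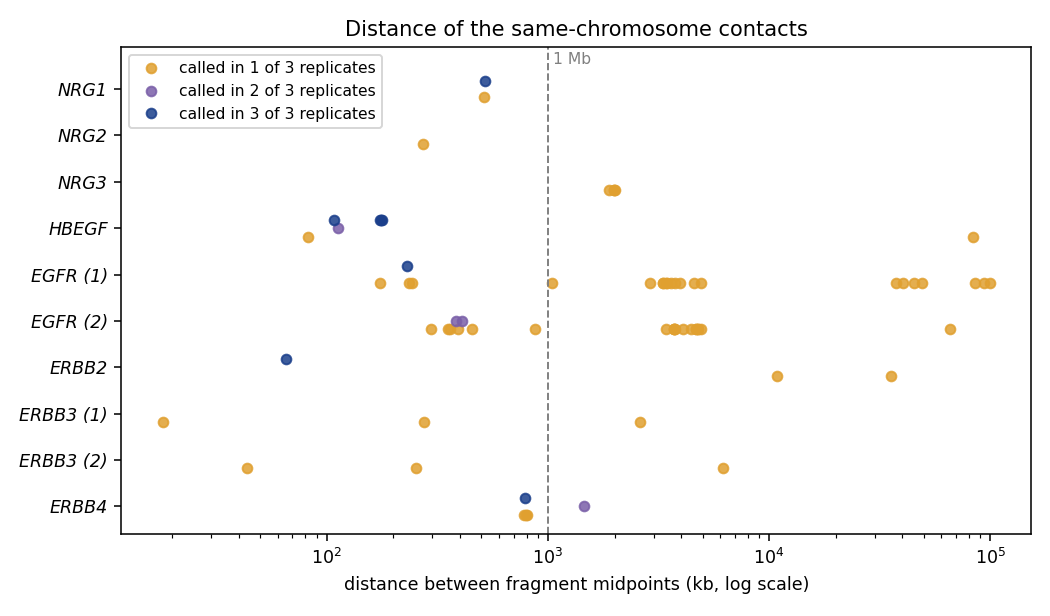
Distance between fragment midpoints (kb, log scale) for the 71 same-chromosome interactions, by promoter fragment and coloured by the number of replicates that called them; the dashed line is at 1 Mb. All interactions called in 3 replicates lie left of the line, and 1 interaction called in 2 replicates, of ERBB4 at 1453 kb, lies right of it.

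Among the ligands, NRG1 encodes the main cardiac neuregulin. Its gene spans 1216 kb of chromosome 8 (31496738 to 32713184, plus strand), and 1 of the 9 fragments holding its 35 annotated transcript starts was listed (chr8:31496268-31507159, with 8 starts). That fragment interacted with chr8:32020302-32024572, an NRG1 intron 521 kb downstream, at scores of 5.15, 5.14 and 6.17 in replicates 1, 2 and 3 (5.49 ± 0.592, SD, n = 3). The fragment next to it on the promoter side was called in replicate 1 at 5.10. On the merged replicates the pair scored 8.83 and 8.49. Both NRG1 interactions thus stayed inside the gene, and no other was called in a single replicate.

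NRG2 encodes a ligand of ERBB3 and ERBB4 on chromosome 5 (139226364 to 139422884, minus strand). Its promoter fragment (chr5:139420641-139422968) had 1 interaction, in replicate 2 at a score of 5.03, with a fragment 272 kb downstream between CXXC5 and PSD2. It was not called on the merged replicates. By the number of interactions, 90.4% of all promoter fragments had more.

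NRG3 encodes a ligand of ERBB4 and spans 1112 kb of chromosome 10 (83634950 to 84746935, plus strand). Its promoter fragment (chr10:83633070-83640207) also holds a start of ENSG00000287358. Each replicate called a different fragment of 1 stretch of 10.6 kb (chr10:85629944-85640508), about 2.00 Mb downstream in the interval between NRG3 and GHITM. The scores were 9.56 in replicate 1, 5.11 in replicate 2 and 7.37 in replicate 3, and the latter 2 fragments scored 5.16 and 5.73 on the merged replicates. Counted fragment by fragment none of these recurred, although all 3 replicates called the stretch. Replicate 1 also called the promoter fragment of the small nuclear RNA gene RNU6-129P, 1.89 Mb downstream, at 6.27. The promoter fragment of NRG3-AS1, an antisense gene within NRG3, had 4 interactions and shared 3 of its PIRs with NRG3's 4, the most of any other promoter fragment.

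HBEGF, a compact gene of 13.8 kb on chromosome 5 (139712428 to 139726188, minus strand), had the most recurrent interactions of the family. Its promoter fragment (chr5:139721188-139728144) had 5, 5 and 6 interactions in replicates 1, 2 and 3 (5.33 ± 0.577, SD, n = 3), and 4 of its 7 different interactions were called in all 3. Of all promoter fragments, 44.9% had more interactions. The 4 recurrent PIRs lay downstream of HBEGF at 2 places.

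The farther place consisted of 3 consecutive fragments, from 139546382 to 139552702, between IGIP and CYSTM1. The fragment at 177 kb (139546382 to 139548403), which overlaps an exon of the non-coding gene ENSG00000254363, scored 6.57, 7.21 and 7.94 (7.24 ± 0.685). The fragment at 176 kb (139548404 to 139549149), whose first bases are printed above, scored 6.83, 6.34 and 6.54 (6.57 ± 0.246). The fragment at 174 kb (139549150 to 139552702) scored 5.63, 6.36 and 5.01 (5.67 ± 0.676). Replicate ranges of neighbouring fragments in this order overlapped, whereas those of the first and the last did not.

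The nearer place lay in introns of CYSTM1, which encodes a small cysteine-rich membrane protein. The fragment at 108 kb (139615953 to 139617710) scored 5.75, 5.18 and 6.29 (5.74 ± 0.555), and its scores overlapped those of the 174-kb fragment. The fragment at 112 kb (139611872 to 139612743) was called in replicates 2 and 3 at 5.27 and 5.48 and was not listed in replicate 1. Singly called partners were a fragment of PFDN1 and CYSTM1 at 82.0 kb in replicate 3 (score 5.39) and the promoter fragment of the kinase gene MAP3K1, 83.6 Mb away, in replicate 1 (score 6.57). The promoter fragment of SLC4A9, a bicarbonate transporter gene next to HBEGF, shared 5 of HBEGF's 7 PIRs out of its own 8, the most of any other promoter fragment. With the 108-kb fragment it scored 9.18, 8.42 and 8.57 (8.72 ± 0.403), above every HBEGF replicate, although scores of different baits rest on different backgrounds.

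**Figure D4:**
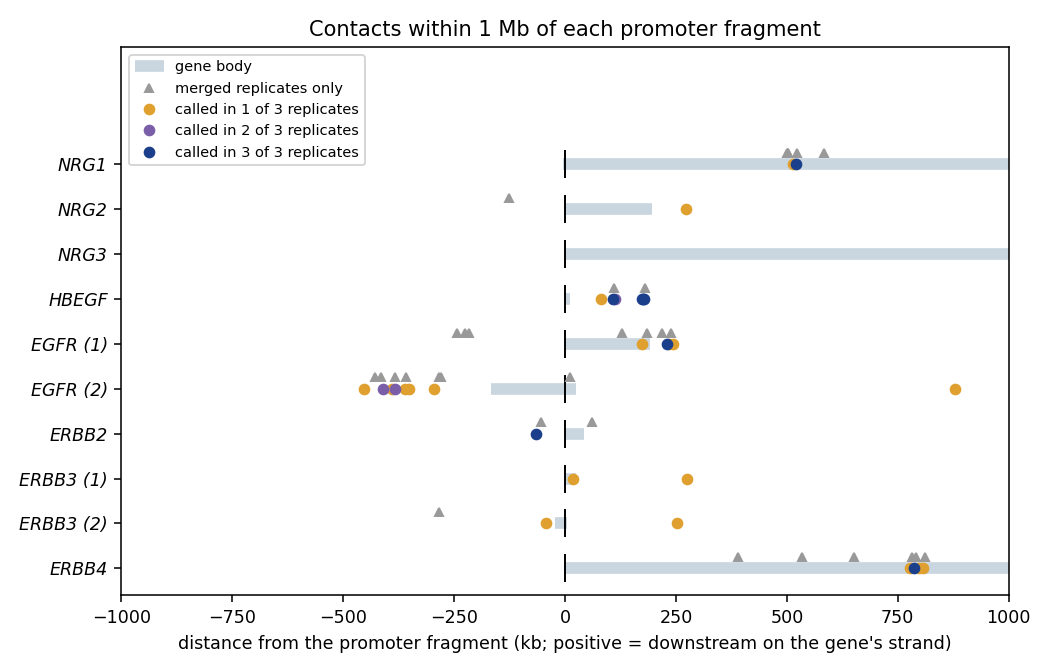
Position of interactions within 1 Mb of each promoter fragment (kb, positive values downstream on the gene's strand), with points coloured by the number of replicates, triangles for interactions called on the merged replicates and in no single one, and grey bars for gene bodies, cut at the edge of the plot for NRG1, NRG3 and ERBB4. The recurrent interactions of NRG1 and ERBB4 fall within their own gene bodies, and those of HBEGF fall 108 to 177 kb downstream of it.

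Among the receptors, EGFR on chromosome 7 (55086710 to 55279321, plus strand) had 44 interactions, 17, 19 and 12 in replicates 1, 2 and 3 (mean 16 ± 3.61, SD, n = 3). They came from 2 promoter fragments with 22 each. The first (chr7:55085854-55089759) holds 8 of the 13 annotated starts, 5 of them of coding transcripts. The second (chr7:55246946-55260892) lies inside the gene and holds the start of 1 non-coding EGFR transcript and a start of EGFR-AS1, so its interactions cannot be assigned to either. Of all promoter fragments, 13.1% had more interactions than either fragment. Without replicate 2 the EGFR total was 27.

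The first EGFR fragment had 1 interaction called in all 3 replicates. It joined the promoter to chr7:55316769-55320606, 231 kb downstream and 37.4 kb past the end of EGFR, in an intron of ELDR. The scores were 6.42, 6.56 and 8.41 (7.13 ± 1.11, SD, n = 3). The next fragment, which holds the start of ELDR, and another at 242 kb were called in replicate 2 at 5.36 and 5.77. The same 4 consecutive fragments were PIRs of a promoter fragment of SEC61G (chr7:54827315-54836550), which encodes a subunit of the protein-conducting channel of the endoplasmic reticulum. SEC61G scored 9.80, 8.10 and 10.73 with the first of them (9.54 ± 1.33) and 12.42, 13.61 and 14.21 (13.4 ± 0.911) with the third, which was called for EGFR on the merged replicates at 6.03 and in no single replicate. At the first fragment this SEC61G fragment scored above EGFR in each replicate, although the ranges of the baits overlapped. The neighbouring SEC61G promoter fragment (chr7:54824893-54827314) scored 7.06, 6.25 and 6.77 there (6.69 ± 0.410), above EGFR in replicate 1 and below it in the others.

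**Figure D5:**
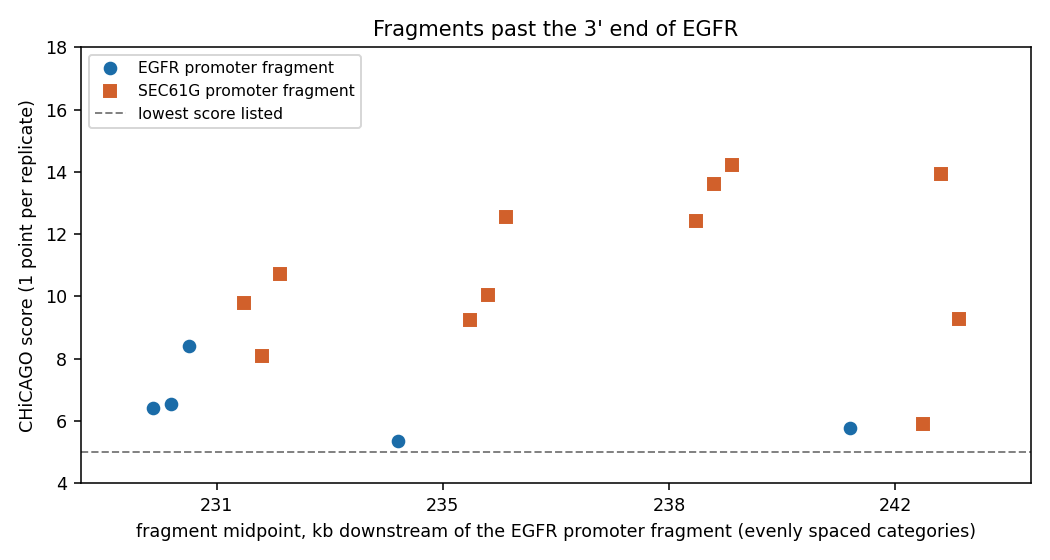
CHiCAGO score in each replicate at the 4 fragments past the end of EGFR (evenly spaced categories, labelled by distance in kb from the first EGFR promoter fragment), for that fragment (circles) and 1 of the SEC61G promoter fragments, the one at 54827315 to 54836550 (squares), with a dashed line at the lowest listed score of 5. SEC61G has 3 replicate scores at each fragment, and EGFR has 3 at 231 kb, 1 at 235 kb, none at 238 kb and 1 at 242 kb.

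The second EGFR fragment had no interaction called in all 3 replicates. A fragment at 384 kb upstream (54869497 to 54871176) was called in replicates 1 and 3 at 8.80 and 5.66, and scored 7.87 on the merged replicates. It lies between SEC61G and EGFR, and so do 4 PIRs that this promoter fragment had in 1 replicate each, while another singly called PIR at 452 kb lies beyond SEC61G. The promoter fragment of VSTM2A, farther in the same direction, shared 11 of the 43 PIRs of both EGFR fragments together, out of its own 88. The SEC61G promoter fragment at 54824893 to 54827314 shared 10 of its own 54. These 10 lay in the distant stretch described next, past the end of EGFR and at a promoter fragment of SUMF2. None of them lay between SEC61G and EGFR.

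Of the 44 EGFR interactions, 22 had PIRs in a distant stretch, between 50163199 and 52192677 of chromosome 7, at 2.90 to 4.93 Mb, 10 from the first promoter fragment and 12 from the second. Replicates 1, 2 and 3 called 7, 11 and 4 of them, each was called in 1 replicate, and none was called on the merged replicates. The SEC61G promoter fragment at 54824893 to 54827314 had PIRs in this stretch in all 3 replicates and on the merged replicates. They were the fragments from 51358145 (scores 7.33, 6.56 and 5.72) and from 51515265 (8.06, 7.03 and 7.23), which were not called for EGFR. A promoter fragment of SUMF2 was called with the first EGFR fragment in replicate 1 (score 9.18) and with the second in replicate 2 (score 6.62). The second fragment also had the only member interaction with another chromosome, a fragment of chromosome 8 in replicate 3 at 5.04.

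ERBB2, the receptor without a known ligand, spans 42.5 kb of chromosome 17 (37844167 to 37886679, plus strand). Its listed fragment (chr17:37844313-37844893) is 581 bp long and holds 2 of the 22 annotated starts, and a fragment with 8 starts (37854288 to 37856916) was not listed. The interaction called in all 3 replicates joined it to chr17:37771251-37787538, 65.2 kb upstream, the promoter fragment of PPP1R1B, which encodes a phosphatase inhibitor known from dopamine signalling. The scores were 5.05, 9.54 and 5.09 (6.56 ± 2.58, SD, n = 3), and 5.07 was the mean without replicate 2. The PPP1R1B fragment also holds a start of ENSG00000214546. Over single replicates it was a partner of 12 promoter fragments, that of ERBB2 included. Those of NEUROD2 (mean 19.6), GSDMB and ORMDL3 (13.2), MIEN1 (8.73) and GSDMA (7.997) were also called with it in all 3 replicates. Each of these means lay above that of ERBB2, although scores of different pairs rest on different backgrounds. Of the 10 member interactions that joined 2 promoter fragments (13.9%), that of ERBB2 with PPP1R1B was the one called in all 3 replicates. The series value of 9.59% counts each pair once (19240 of 200587) and is not on the members' basis. Counted from each promoter fragment, as for the members, the series had 219827 interactions, and each of the 19240 pairs entered from both sides. The member share of interactions joining 2 promoter fragments was 25% without EGFR. It was 3.45% on the merged calls and 1.59% with the member fragment in the first column alone. First-column order leaves out pairs listed under the other promoter fragment. No series share was computed for either setting, so these shares cannot be set against the series value. ERBB2 stood in the second column of the call with PPP1R1B in every replicate, so PPP1R1B was the bait under which it was listed. The other ERBB2 partners were the promoter fragment of the ribosomal protein gene RPL23A, 10.8 Mb away, in replicate 2 (score 6.64), and an intron of GRB2, 35.5 Mb away, in replicate 1 (score 8.21). GRB2 encodes an adaptor of these receptors and was singled out here after its value was seen.

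ERBB3, the kinase-impaired neuregulin receptor, spans 26.7 kb of chromosome 12 (56470583 to 56497289, plus strand) and had 2 listed fragments and no interaction called in more than 1 replicate. The first fragment (chr12:56466979-56476055), with 15 of 33 starts, had 0, 3 and 0 interactions in replicates 1, 2 and 3. The second (chr12:56491197-56496295), which also holds a start of ENSG00000257411, had 1 in each. Without replicate 2 the ERBB3 total fell from 6 to 2. A fragment within STAT2, the interferon signalling factor, that is the promoter fragment of RNU7-40P (56745636 to 56747838) was called with the first ERBB3 fragment in replicate 2 (score 9.06) and with the second in replicate 1 (score 12.55, the highest score of any member interaction). It was not called with either on the merged replicates. Over single replicates it was a partner of 20 promoter fragments, those of ERBB3 included. Replicate 3 called a 258-bp fragment 43.4 kb upstream of the second fragment at 5.49, which scored 7.68 on the merged replicates.

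ERBB4, the neuregulin receptor of cardiomyocytes, spans 1163 kb of chromosome 2 (212240442 to 213403565, minus strand). Its promoter fragment (chr2:213399007-213405212) had 2, 2 and 4 interactions (2.67 ± 1.15, SD, n = 3). The 305-bp intronic fragment printed above (212615943 to 212616247, 786 kb downstream) scored 5.87, 6.65 and 7.24 (6.59 ± 0.687) and 11.72 on the merged replicates. In the same part of the gene, fragments at 779, 797 and 808 kb were called in replicates 3, 1 and 3 at 5.38, 5.50 and 5.33, and all were called on the merged replicates. The fifth interaction ran past the end of the gene to chr2:211948491-211949223, 1453 kb away between CPS1 and ERBB4, and was called in replicates 2 and 3 at 9.27 and 6.72. No other promoter fragment had any of the 5 fragments as a PIR.

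Own-gene interactions were 4 of 5 for ERBB4, 2 of 2 for NRG1, 1 of 44 for EGFR and 1 of 6 for ERBB3, or 8 of 72 in all (11.1%, against 5.06% for promoter fragments of protein-coding genes). NRG3, which is about as long as ERBB4 and NRG1, had none. A PIR next to another PIR of the same promoter made up 11 of 72 (15.3%), against 49.1% of PIRs over the series. This share depends on how many PIRs a promoter has. The ligand promoters had 14 interactions, 5 of them in all 3 replicates, and the receptor promoters had 58, 3 of them in all 3. The share over the series was 24.0%. Each side rested largely on 1 gene, because HBEGF held 4 of those 5, and EGFR held 44 of the 58 with 1 in all 3.

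Other genes of the pathway were taken from a list of 37 ligands, proteases, effectors, inhibitors and scaffolds. Of these, 31 had a listed promoter fragment and 24 (77.4%) had an interaction called in all 3 replicates, against 55.9% of protein-coding genes, with no test made. All 5 listed EGF-family ligand genes had one, and so did 4 of 5 genes of ectodomain proteases, which shed the ligands. The counts were 9 of 12 for adaptors and effectors, 4 of 5 for negative regulators and 2 of 4 for scaffolds or partners. The highest mean score of EGF, the founding ligand of the family, was 29.1 ± 8.82 at 515 kb, and that of ERRFI1, an inhibitor of EGFR and ERBB2 kinases, was 28.9 ± 3.51 at 287 kb (SD, n = 3 for both). ADAM10, a sheddase gene, had 38 interactions with 23 in all 3 replicates.

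Fragments without any listed interaction cannot be seen in these files, so 27 of the 35 NRG1 starts and 20 of the 22 ERBB2 starts, which lie on fragments that were not listed, have no value here. None of the PIRs of the 72 interactions and none of the 10 promoter fragments had a copy elsewhere in GRCh37 of at least 95% identity over at least 500 bp. The search cannot judge fragments shorter than that.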

How the data were processed

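PCHi-C libraries of 3 biological replicates of hESC-CM were examined. The authors processed the reads with HiCUP and called interactions with CHiCAGO under default parameters, per replicate and on the merged replicates; versions are not given in the sources used here. The deposited score in each file is the CHiCAGO score of a pair of HindIII fragments in GRCh37, at least 5 and with 2 decimals. No read counts were used, so depth was not analysed, and no test of a difference was possible within 1 group.

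Here each pair was counted once whatever its order, and a promoter fragment was one listed in the first column of any replicate. Transcript starts came from GENCODE 44 lifted to GRCh37. Distances are between midpoints. Values are given per replicate, with mean and SD over the replicates that called a pair, so a mean cannot fall under 5. The same interaction needed the same 2 fragments. Named interactions were, for each gene, the 3 with the highest mean score called in all 3 replicates or, where none was, the 1 with the highest mean score; promoter interactions and interchromosomal ones called in all 3; and the promoter fragment sharing most PIRs, where at least 3 were shared. Any other interaction printed was chosen after its values were seen. Many EGFR interactions are given by counts alone, and the values of 1 called in 2 replicates are not reported here. Members and lists were chosen with earlier results of these data known. Counting was tested on simulated data with known answers. Python 3.11.15, pandas 2.3.3, pysam 0.24.0, samtools 1.23.1 and minimap2 2.31-r1302 were used. Alternatives were scores of at least 7 or 10, each replicate left out, the merged calls, first-column order, same-chromosome pairs, matching within 5 kb and coding starts.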

Additional observations from a re-analysis of the deposited data

Results flagged for a closer look

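Interactions that the authors called on the merged replicates and that no single replicate listed are not among the 72 interactions above. For each of 3 genes there were 5 or more of them, whereas the other members had at most 2. NRG1 had 5 such interactions, all inside its own gene at 501 to 583 kb, with scores from 5.01 to 6.15. EGFR had 14, at 10.3 to 428 kb, with scores from 5.01 to 6.26, and ERBB4 had 6, all inside its own gene at 389 to 810.3 kb, with scores from 5.02 to 6.25. Those of EGFR came from 2 promoter fragments, 7 from each. For NRG1, EGFR and ERBB4, 1, 5 and 3 lay within 5 kb of a PIR from a single replicate. For all members they were 31 of 58 merged calls, and 17 of 34 without EGFR. The other 27 of the 58 were also called in a single replicate. The series had 152757 merged calls, and 113733 interactions of single replicates were also called on the merged replicates. Calls seen on the merged replicates alone thus made up a larger share for the members than over the series. The exact series share was not computed.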

How the results depend on the processing

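Requiring a score of at least 7 left 20 member interactions, 25% of them joining 2 promoter fragments and 0% in all 3 replicates. At 10 or more, 2 were left, with a median distance of 24559.9 kb, 50% joining promoters and 0% in all 3, and 10 pathway genes kept an interaction in all 3 replicates. On the merged calls the median distance was 323 kb, against 2003 kb over single replicates, and 3.45% joined promoters. With the member fragment in the first column alone these were 2749 kb and 1.59%. Leaving out 1 replicate gave 48 to 57 interactions, medians of 1044 kb (without replicate 2) to 1997 kb, 10.4 to 17.5% joining promoters, 15.8 to 19.6% in all remaining replicates and 25 to 26 pathway genes. In alternatives chosen after seeing the data, leaving out EGFR gave 28 interactions, a median of 649.7 kb, 60.7% on the merged calls, 25% joining promoters and 25% in all 3, and 1 promoter fragment per gene gave 47 interactions. Matching PIRs within 5 kb put 19.4% in all 3 replicates. The cause of these shifts was not tested. Of the values for single genes, 43 counts stayed within 1.5 times the reported count and 29 did not. On the merged replicates, 7 scores of recurrent interactions moved by more than 1 SD, and that of ERBB2 moved by less. Leaving out 1 of 3 replicates cannot move their mean by 1 SD, so it says nothing on how stable the scores were. The merged calls give no share over replicates, 5-kb matching was applied to that share alone, and the pathway list was not run on merged calls or coding starts. No paired analysis was possible because the series has 1 group. Read depth was not analysed, and an interaction missing from a replicate may have scored just under 5.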

Other observations

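The recurrent PIRs downstream of HBEGF were also called with other promoters of the same part of chromosome 5. The promoter fragment of PSD2, which encodes an exchange factor for ARF GTPases, interacted in each replicate with the fragment from 139546382 to 139548403, at scores of 8.13, 11.87 and 8.45 (9.48 ± 2.07, SD, n = 3). The same fragment was called with the promoter fragment of SLC4A9 at 5.29, 6.79 and 7.58 (6.55 ± 1.16). On the merged replicates it was also listed for NRG2, 126 kb upstream of that gene's promoter fragment, at 5.34, which no single replicate listed. It thus was a PIR of both ligand genes of chromosome 5 in the merged calls, with a score of 12.06 for HBEGF.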
